A study of Mus musculus with 17 samples.

Results

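The genes described here are 10 targets of the transcription factor p53 that act in growth arrest and in feedback on p53: Cdkn1a, Mdm2, Ccng1, Btg2, Sesn1, Sesn2, Gtse1, Zmat3, Phlda3 and Plk2. They were chosen by name, and their probes were found through the RefSeq transcript that each array feature lists. This gave 11 probes of the 55681 on the array, 2 of them for Cdkn1a and 1 for each of the others. All 10 genes passed the filter on dim probes and were among the 21384 genes tested, Gtse1 through 1 slide alone, as described below.

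p53 is stabilised when DNA is damaged and switches on a set of genes. Some of these stop the cell cycle, some lower p53 again and some start cell death. Benzo(a)pyrene (BaP) is a polycyclic aromatic hydrocarbon whose metabolites form bulky DNA adducts, and in rodents it causes tumours of the forestomach, the part of the stomach lined by stratified squamous epithelium. Within the present genes, Cdkn1a, Btg2, Gtse1 and Plk2 act on cell cycle progress, Mdm2 and Ccng1 act back on p53, and Sesn1, Sesn2, Zmat3 and Phlda3 act on stress, growth signalling and RNA.

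Male MutaTMMouse animals, a transgenic strain that carries bacterial lacZ copies for mutation assays, were 24 to 26 weeks old. They were gavaged daily for 28 days with olive oil (control, 5 arrays) or with BaP in olive oil at 25, 50 or 75 mg/kg per day (4 arrays each), and the forestomach was taken 72 hours after the last dose. Each of the 17 arrays held forestomach RNA of 1 sample in Cy5 and a reference RNA pooled from 11 mouse cell lines in Cy3. Every value below is therefore a log2 ratio of Cy5 over Cy3: it is positive where the forestomach gave more signal than the reference, and only differences between groups bear on the dose.

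The arrays lay on 3 slides, and each slide carried at least 1 array of every group. In Cy5, the share of probes well above background ran from 39.9% to 50.7% over the arrays. All 10 squamous epithelium markers were well above background on every array, so the tissue carried its label's markers. Markers of the glandular stomach, the neighbouring part of the organ, varied between arrays. The mean log2 ratio of the 7 tested was 0.18 to 1.81 in controls, 0.60 to 5.55 at 25 mg/kg, 1.00 to 1.93 at 50 mg/kg and 0.55 to 3.49 at 75 mg/kg. None of the 7 passed the test at any dose, 1 of the 8 on the array was well above background on all arrays, and their part in the results was not tested. The 8 smooth muscle markers, all measured on every array, had a mean of 4.17 to 4.73 at 75 mg/kg, against 4.55 to 5.22 in controls. All 8 differed from control by less than 0 at 75 mg/kg (median -0.41) and none passed; their part in the results was not tested either. Means of the 6 adipocyte markers ran wider than those of the glandular markers in controls (1.14 to 4.07) and at 50 mg/kg (1.12 to 3.32). Their median difference from control was 0.42, -0.98 and -0.83 at 25, 50 and 75 mg/kg. None passed, 1 of the 6 was well above background on all arrays, and their part was not tested. In these bulk samples, fewer cells of a type and less RNA per cell cannot be told apart.

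Letters of promoters are shown for 4 genes that hold a p53 half-site consensus in the window searched, and for Phlda3, whose 75 mg/kg arrays are described below and whose window holds no match. RefSeq (GRCm38.p6) gave 12 promoters for 9 of the 10 genes. The window was the 250 bases before each annotated start. The search used the p53 half-site consensus, a motif of 10 letters that reads alike on both strands. A full site was taken as a pair of non-overlapping half-sites, 0 to 13 bases apart, with at most 2 mismatches in all and the inner C and G of each half-site kept. Capitals mark exact half-sites and the half-sites of a full site.

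Cdkn1a, upstream start, chr17:29090729-29090978, + strand: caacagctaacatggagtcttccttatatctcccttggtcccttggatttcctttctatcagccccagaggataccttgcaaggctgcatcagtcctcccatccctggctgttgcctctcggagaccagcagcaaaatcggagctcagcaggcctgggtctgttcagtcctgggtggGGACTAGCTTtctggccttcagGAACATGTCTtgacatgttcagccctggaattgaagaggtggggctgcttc

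Ccng1, chr11:40755287-40755536, - strand: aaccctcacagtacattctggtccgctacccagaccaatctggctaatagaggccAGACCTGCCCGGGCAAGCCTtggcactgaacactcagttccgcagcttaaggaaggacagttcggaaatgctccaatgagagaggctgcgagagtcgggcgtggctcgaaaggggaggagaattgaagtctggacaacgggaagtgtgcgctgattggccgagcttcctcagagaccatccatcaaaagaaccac

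Sesn1, downstream start, chr10:41887189-41887438, + strand: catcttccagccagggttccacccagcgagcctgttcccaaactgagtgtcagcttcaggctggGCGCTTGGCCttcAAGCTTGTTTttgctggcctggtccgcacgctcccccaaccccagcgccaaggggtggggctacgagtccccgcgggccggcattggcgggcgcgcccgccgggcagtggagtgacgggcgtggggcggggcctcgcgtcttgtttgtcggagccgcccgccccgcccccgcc

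Mdm2, chr10:117710759-117711008, - strand: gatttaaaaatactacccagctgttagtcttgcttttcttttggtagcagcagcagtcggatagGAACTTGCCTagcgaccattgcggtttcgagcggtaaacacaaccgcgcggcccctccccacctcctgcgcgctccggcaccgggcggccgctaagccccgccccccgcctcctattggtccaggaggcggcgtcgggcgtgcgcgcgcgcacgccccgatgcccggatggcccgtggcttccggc

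Phlda3, chr1:135765835-135766084, + strand: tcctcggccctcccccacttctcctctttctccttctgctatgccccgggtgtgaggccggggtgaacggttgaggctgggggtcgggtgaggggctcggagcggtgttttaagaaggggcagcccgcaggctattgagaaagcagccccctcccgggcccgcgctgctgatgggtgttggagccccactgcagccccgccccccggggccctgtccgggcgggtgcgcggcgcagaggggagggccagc

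An exact half-site stood in the windows of Cdkn1a, Ccng1, Sesn1 and Mdm2, which is 4 of 12 windows (33.3%), against 7.13% of all 32851 promoter windows of the same length. A full site stood in 3 of the 12 (25%), those of Cdkn1a, Ccng1 and Sesn1, against 3.34% of all windows. At Cdkn1a the marked pair had 0 mismatches and lay from base -73 to base -42 before the upstream start, with a spacer of 12 bases. The letters directly after that pair, tgacatgttc, match the half-site with 1 mismatch. Together with the second half-site of the pair they form another full site, with a spacer of 0 bases, which is not marked. At Ccng1 the marked pair had 1 mismatch, lay from base -195 to base -176 and had a spacer of 0 bases. These matches describe letters in a window. Well known p53 sites of several of these genes lie in introns or farther upstream, outside it.

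None of the 10 genes passed the test at any dose against control. With limma and a Benjamini-Hochberg adjusted p under 0.05, 0 of 10 passed in either direction at 25, 50 and 75 mg/kg, where 0.014%, 0.0468% and 1.1% of all 21384 genes passed. At 75 mg/kg, 4 of the 10 had an unadjusted p under 0.05 (10.1% of all genes did): Ccng1, Zmat3 and Phlda3 with higher values (5.69% of all genes) and Sesn1 with a lower one (4.38%). The count was 2 at 50 mg/kg (6.81% of all genes), Ccng1 and Zmat3, and 1 at 25 mg/kg (3.26%), Zmat3. The difference was above 0 for 7, 5 and 6 of the 10 genes at 25, 50 and 75 mg/kg, beside 52.3%, 47.9% and 48% of all genes. The median difference from control of the 10 genes was 0.07, 0.06 and 0.07 on the log2 scale at 25, 50 and 75 mg/kg, and that of all genes lay within 0.01 of 0 at each dose (0.01, -0.01 and -0.01). At 75 mg/kg the differences ran from -0.31 for Sesn1 to 0.68 for Ccng1.

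**Figure D1:**
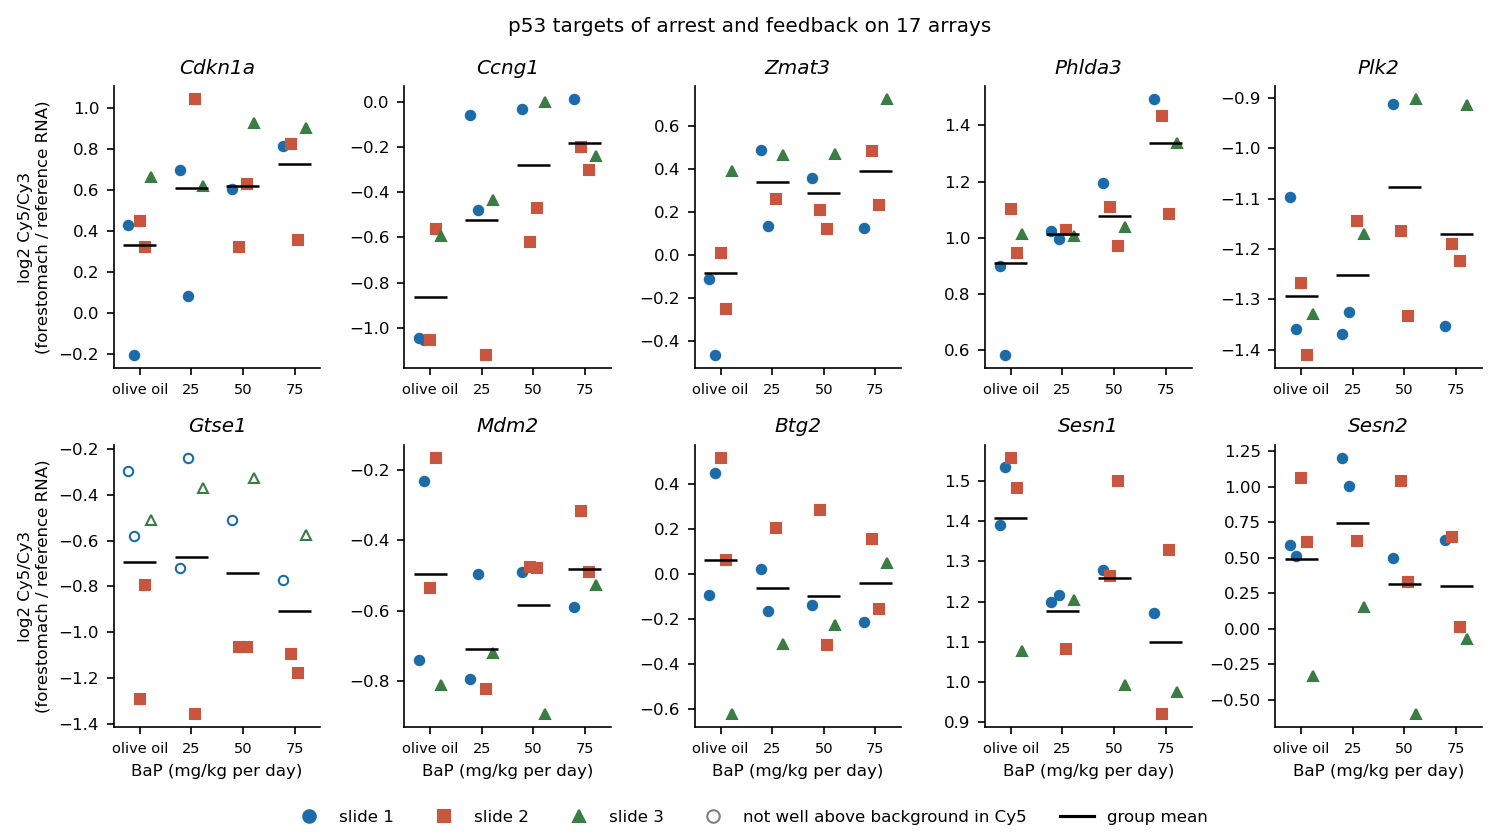
Log2 ratio of forestomach over reference RNA (y axes, 1 scale per gene) for the 10 genes in olive oil controls (5 arrays) and at 25, 50 and 75 mg/kg BaP (4 arrays each). Each point is 1 array, its shape and colour give the slide, open points were not well above background in Cy5, and bars are group means. All 4 Ccng1 arrays at 75 mg/kg lie above all 5 controls, Sesn2 is lowest on slide 3 in every group, and Gtse1 is lowest on slide 2 in every group.

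Of Ccng1 and Mdm2, grouped here as genes that act back on p53, Ccng1 differed more from control. Ccng1 encodes cyclin G1, which recruits a phosphatase to Mdm2. Its log2 ratios were 0.01, -0.20, -0.30 and -0.24 on the 75 mg/kg arrays, against -1.04, -1.05, -1.06, -0.56 and -0.59 on the control arrays. The groups did not overlap, as was the case for 3.3% of all genes in this comparison. With each gene read by its brightest probe, no other of the 10 had this at 75 mg/kg, and none had it at 50 or 25 mg/kg (2.21% and 0.987% of all genes). The arrays at 25 mg/kg gave -0.06, -0.48, -1.12 and -0.43, and those at 50 mg/kg gave -0.03, -0.62, -0.47 and -0.0012. Both of these doses overlapped the controls, and the single lowest Ccng1 value of all 17 arrays was at 25 mg/kg (replicate 8).

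The mean of Ccng1 was -0.18 ± 0.14 at 75 mg/kg (SD, n = 4) and -0.86 ± 0.26 in controls (SD, n = 5), a difference of 0.68 ± 0.19 (SE of the fit), or 1.60-fold, with a limma adjusted p of 0.13. The 95% interval of that difference was 0.28 to 1.08. At 50 mg/kg the difference was 0.58 ± 0.19 (adjusted p = 0.538) and at 25 mg/kg 0.34 ± 0.19 (adjusted p = 0.999). The value at 25 mg/kg was 0.18 without that group's replicate 6 and 0.54 without its replicate 8. Within the 3 slides the difference between 75 mg/kg and control was 1.06, 0.56 and 0.35. With slide as a block Ccng1 passed, at 0.71 ± 0.17 (limma adjusted p = 0.0475), and it also passed in the Cy5 channel alone, at 0.73 ± 0.16 (limma adjusted p = 0.0342). In these settings 424 and 245 of 21384 genes passed, against 236 in the main fit.

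A straight line on dose gave Ccng1 a slope of 0.23 ± 0.06 per step of 25 mg/kg (limma adjusted p = 0.054). With slide as a block the slope was 0.25 ± 0.05 and passed (limma adjusted p = 0.0167). In that setting 549 of 21384 genes passed by slope, against 288 without the block. The slope also passed in 3 of 17 fits that each left out 1 array. These left out replicate 6 or 8 at 25 mg/kg or replicate 13 at 50 mg/kg (0.24, 0.22 and 0.24). Over the 17 fits the limma adjusted p was as high as 0.134. Of the 10 genes 0 passed the slope test, against 1.35% of all genes, and 4 had an unadjusted p under 0.05 (11.4% of all genes).

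Mdm2 encodes the ubiquitin ligase that marks p53 for degradation and is itself switched on by p53. It gave -0.59, -0.32, -0.49 and -0.53 at 75 mg/kg, against -0.74, -0.23, -0.54, -0.17 and -0.81 in controls. The 4 treated values lay inside the range of the controls. The difference was 0.02 ± 0.14 (limma adjusted p = 0.984), with a 95% interval of -0.28 to 0.31. At 25 mg/kg it was -0.21 ± 0.14 and at 50 mg/kg -0.09 ± 0.14 (the lower of the limma adjusted p values was 0.935). Within the slides, the 75 mg/kg arrays differed from control by -0.10, -0.05 and 0.28.

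Of the genes of growth signalling and RNA stability, Phlda3 and Zmat3 had higher means at 75 mg/kg without passing the test. Phlda3 encodes a small protein that binds membrane lipids and holds back Akt. It gave 1.49, 1.43, 1.09 and 1.34 at 75 mg/kg, against 0.90, 0.58, 1.10, 0.94 and 1.01 in controls. Of the treated arrays 3 of 4 lay above all controls, and replicate 19 lay just below the highest control. The 4 arrays at 25 mg/kg lay between 1.00 and 1.03 and those at 50 mg/kg between 0.97 and 1.19.

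Phlda3 differed from control by 0.43 ± 0.11 at 75 mg/kg, or 1.35-fold (limma adjusted p = 0.0682; 95% interval 0.21 to 0.65). Without replicate 19 of the 75 mg/kg group the difference was 0.51 ± 0.11 and passed (limma adjusted p = 0.0256). That array was the lowest of its group, so leaving it out could only raise the difference. Phlda3 passed in 1 of 17 fits that each left out 1 array. Over these fits the difference ran from 0.35 to 0.51, with a limma adjusted p of up to 0.228. The differences at 50 and 25 mg/kg were 0.17 ± 0.11 and 0.10 ± 0.11 (adjusted p = 0.817 and 0.999). Within the slides the 75 mg/kg arrays differed from control by 0.75, 0.24 and 0.32. Its dose slope was 0.13 ± 0.03 per 25 mg/kg, with a limma adjusted p of 0.0504, at the edge of the threshold, and 0.0467 with slide as a block. The slope passed in 5 of the 17 fits that each left out 1 array, at 0.14 to 0.15. These left out control replicate 3 or 5, replicate 14 or 15 at 50 mg/kg, or replicate 19 at 75 mg/kg. Over the 17 fits the slope was as low as 0.11 and the limma adjusted p as high as 0.151.

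Phlda3 was also the 1 gene of the 10 whose 75 mg/kg arrays did not overlap those at 25 mg/kg, as was the case for 3.09% of all genes. The difference of 75 from 25 mg/kg was 0.32 ± 0.11 (limma adjusted p = 0.677). In that comparison 0 of the 10 genes passed, against 0.0608% of all genes, and only Phlda3 had an unadjusted p under 0.05 (4.74% of all genes).

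Zmat3, a zinc finger protein that binds RNA, gave 0.12, 0.48, 0.23 and 0.73 at 75 mg/kg, against -0.11, -0.47, 0.01, -0.25 and 0.39 in controls. Only 2 of the 4 treated arrays lay above all controls, because control replicate 5 was high. That control lay on slide 3, whose arrays averaged 0.28 above their group means for Zmat3. The difference was 0.48 ± 0.16, or 1.39-fold (limma adjusted p = 0.237; 95% interval 0.15 to 0.81). It was 0.38 ± 0.16 at 50 mg/kg and 0.42 ± 0.16 at 25 mg/kg, and no dose passed (limma adjusted p = 0.714 and 0.999). Within the slides, the difference of 75 mg/kg from control was 0.42, 0.48 and 0.34, each from 1 or 2 arrays per group. It was 0.65, 0.29 and 0.08 at 50 mg/kg and 0.60, 0.38 and 0.07 at 25 mg/kg, so it was less even at these doses. With slide as a block the difference at 75 mg/kg was 0.45 ± 0.12 and did not pass (limma adjusted p = 0.0716).

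**Figure D2:**
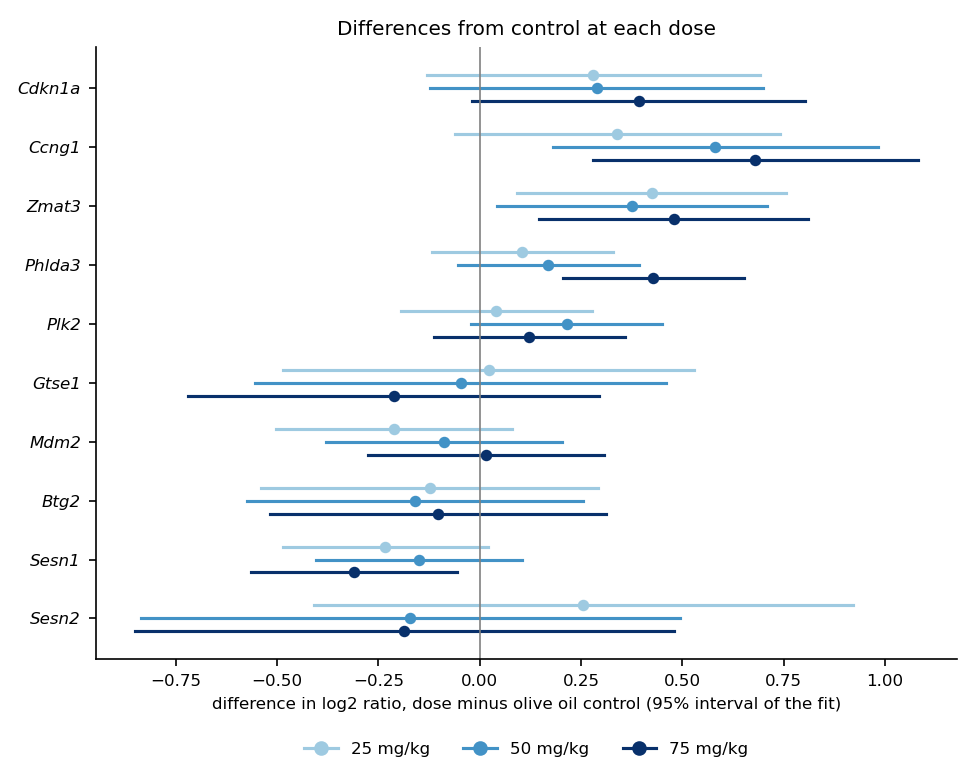
Difference in log2 ratio from olive oil control (x axis) for each gene at 25, 50 and 75 mg/kg, as points with the 95% interval of the fit. Before any adjustment for the number of genes tested, the intervals of Ccng1, Zmat3 and Phlda3 at 75 mg/kg, of Ccng1 and Zmat3 at 50 mg/kg and of Zmat3 at 25 mg/kg lie above 0, and that of Sesn1 at 75 mg/kg below it.

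Sestrins lower oxidative stress and hold back mTORC1 signalling. Sesn1 gave 1.17, 0.92, 1.33 and 0.98 at 75 mg/kg, against 1.39, 1.54, 1.56, 1.48 and 1.08 in controls. Of the treated arrays 2 of 4 lay below all controls. The difference was -0.31 ± 0.12 (limma adjusted p = 0.362; 95% interval -0.56 to -0.06), but with arrays only centred on their medians it was 0.03, in a setting where the median of all genes was 0.19. At 50 and 25 mg/kg Sesn1 differed by -0.15 ± 0.12 and -0.23 ± 0.12 (adjusted p = 0.858 and 0.999).

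Sesn2 followed the slide. It gave 0.63, 0.64, 0.01 and -0.07 at 75 mg/kg, against 0.59, 0.51, 1.06, 0.61 and -0.34 in controls. The array on the third slide was the lowest in all 4 groups, as was the case for 5.77% of all genes, and the arrays of that slide lay on average 0.68 below their group means. The difference from control at 75 mg/kg was -0.19 ± 0.31 (limma adjusted p = 0.899), and -0.14 ± 0.19 with slide as a block (limma adjusted p = 0.798). At 50 and 25 mg/kg Sesn2 differed by -0.17 ± 0.31 and 0.26 ± 0.31 (adjusted p = 0.946 and 0.999).

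Cdkn1a encodes p21, the inhibitor of cyclin-dependent kinases through which p53 halts the cell cycle, and it was read by a probe with 10 spots on each array. Its ratios were 0.82, 0.82, 0.36 and 0.90 at 75 mg/kg, against 0.43, -0.21, 0.45, 0.32 and 0.67 in controls. Of the treated arrays 3 of 4 lay above all controls, and replicate 19 lay within them. The arrays gave 0.70, 0.09, 1.05 and 0.62 at 25 mg/kg and 0.61, 0.32, 0.63 and 0.93 at 50 mg/kg. The highest and the lowest treated value were thus both at 25 mg/kg.

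The difference of Cdkn1a from control was 0.39 ± 0.19 at 75 mg/kg, or 1.31-fold (limma adjusted p = 0.522; 95% interval -0.02 to 0.80). It was 0.29 ± 0.19 at 50 mg/kg and 0.28 ± 0.19 at 25 mg/kg (adjusted p = 0.829 and 0.999). The value at 50 mg/kg was 0.15 without control replicate 2, and that at 25 mg/kg was 0.14 without replicate 8 of its group and 0.46 without replicate 7. Within an array, the 10 spots had an SD of 0.05 to 0.22 on the log2 scale, with a median of 0.11. The SD between arrays of a group was 0.25 at 75 mg/kg and 0.33 in controls, so the spread between samples was larger than the median spread between spots.

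A second Cdkn1a probe, for the RefSeq transcript NM_001111099, was dim. In Cy5 its signal was well above background on 3 of 4 arrays at 75 mg/kg, 2 of 4 at 50 mg/kg, 0 of 4 at 25 mg/kg and 0 of 5 controls. Its ratios were -0.16, -0.28, -0.24 and -0.33 at 75 mg/kg, against -0.78, -1.08, -0.59, -0.49 and -0.95 in controls, and the groups did not overlap. Among genes read by their brightest probe this was the case for 3.3%, and the share over all probes was not counted. The probe passed the dim filter only through arrays at 75 and 50 mg/kg. No control array measured it above background, so the mean at 75 mg/kg was set against a floor for controls. In the Cy5 channel alone, open to dye bias, that mean lay 1.34-fold above the floor. This is not a lower bound, since replicate 19 of the 75 mg/kg group entered the mean without being well above background. Over all probes the fitted difference was 0.52 ± 0.16 and did not pass (limma adjusted p = 0.211). Which of the gene's annotated starts this transcript uses is not given in the sources used here.

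**Figure D3:**
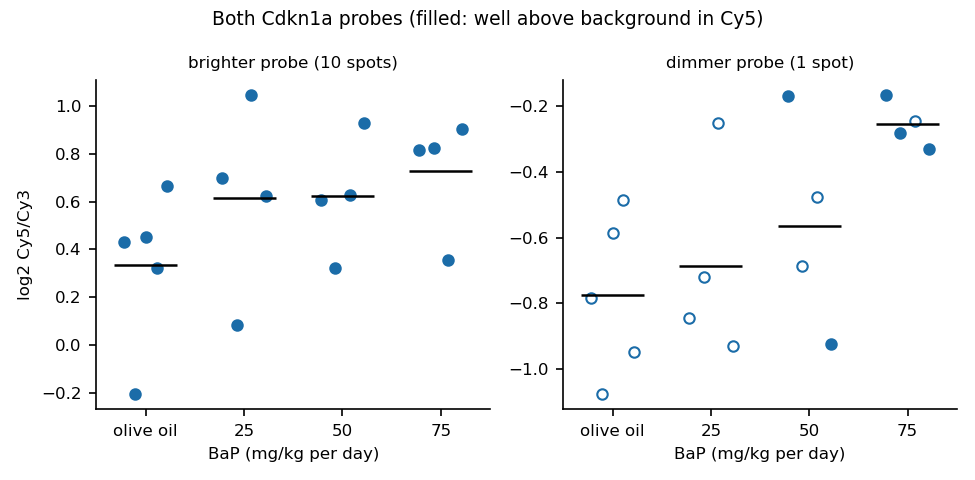
Log2 ratio of both Cdkn1a probes in controls and at 25, 50 and 75 mg/kg BaP, 1 point per array, with bars for group means and open points where Cy5 was not well above background. The brighter probe overlaps between groups, and on the dimmer one the 4 arrays at 75 mg/kg lie between -0.33 and -0.16, above all 5 controls. On the dimmer probe no control was well above background in Cy5.

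Control replicate 2 stood apart in genes of the cell cycle as well as in several genes described here. It had the lowest ratio of the 17 arrays for Cdkn1a (-0.21), Phlda3 (0.58) and Zmat3 (-0.47), while Mki67, a marker of cycling cells, was -0.82 there and between -3.49 and -2.74 on the other controls. Without that array the differences at 75 mg/kg were 0.26 ± 0.18 for Cdkn1a, 0.35 ± 0.09 for Phlda3 and 0.38 ± 0.15 for Zmat3, and none passed (limma adjusted p = 0.713, 0.1 and 0.369). The part of that array's cell cycle level in these values was not tested.

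The other genes that act on the cell cycle did not pass at any dose. Btg2, an antiproliferative protein, ran from -0.21 to 0.16 at 75 mg/kg, against -0.62 to 0.52 in controls, a spread that held the treated arrays. Its difference was -0.10 ± 0.20 at 75 mg/kg, -0.16 ± 0.20 at 50 mg/kg and -0.12 ± 0.20 at 25 mg/kg, and no dose passed (lowest limma adjusted p = 0.908). Plk2, a kinase of the polo family, ran from -1.35 to -0.91 at 75 mg/kg, against -1.41 to -1.10 in controls. It differed by 0.12 ± 0.11, 0.21 ± 0.11 and 0.04 ± 0.11 at 75, 50 and 25 mg/kg (lowest limma adjusted p = 0.768). At 75 mg/kg it was 0.036 without that group's replicate 20 and 0.18 without its replicate 17.

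Gtse1, a protein of G2 and S phase that is known to bind p53 and move it out of the nucleus, was measured above background in Cy5 only on the second slide. It was well above background on 7 of 7 arrays there and on 0 of 10 arrays elsewhere, and all of that slide's arrays lay below the rest of their group in all 4 groups, as was the case for 2.11% of all genes. On that slide it gave -1.10 and -1.18 at 75 mg/kg, against -1.29 and -0.80 in controls. Over all arrays the difference at 75 mg/kg was -0.21 ± 0.24 (limma adjusted p = 0.826), but 0.10 in the Cy5 channel alone. With slide as a block it was -0.16 ± 0.13 (limma adjusted p = 0.619).

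Other genes of the pathway were taken from lists that hold none of the 10. Of 15 p53 targets that promote apoptosis, 14 were tested; 5 rose at 75 mg/kg (0.893% of all genes did) and 0 fell, 1 rose at 50 mg/kg and 0 at 25 mg/kg (0.0468% and 0.014% of all genes passed at these doses). Pmaip1, which encodes the BH3-only protein Noxa, gave -0.80, -1.10, -1.10 and -0.75 at 75 mg/kg, against -2.15, -1.53, -2.05, -1.94 and -2.30 in controls. It rose by 1.06 ± 0.14 (limma adjusted p = 0.00111), with a range of 0.98 to 3.40 over the other settings and a signal well above background on 13 of 17 arrays. Trp53inp1 encodes a nuclear protein that acts with p53, and it rose by 0.83 ± 0.11 at 75 mg/kg and by 0.72 ± 0.11 at 50 mg/kg (limma adjusted p = 0.00169 and 0.0325).

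Bbc3, which encodes the BH3-only protein Puma, rose by 0.80 ± 0.13 at 75 mg/kg (limma adjusted p = 0.00429), the exonuclease gene Aen by 0.48 ± 0.10 and Bax, a pore former of mitochondria, by 0.39 ± 0.09 (limma adjusted p = 0.0349 and 0.0491). Pmaip1, Trp53inp1 and Bbc3 passed in all 29 other settings run, Aen in 21 and Bax in 5 of them. The median difference of that list was 0.36, beside 0.07 for the 10 genes of arrest and feedback and -0.01 for all genes. The difference of Ccng1, 0.68, lay between those of Aen and Bbc3, and its SE, 0.19, was larger than theirs. The members and lists were chosen with earlier results of these data known, so these counts and medians describe the lists. A test of the difference between the lists was not made.

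Of 19 genes for p53 and its regulators, 0 passed at any dose by limma, where 1.1%, 0.0468% and 0.014% of all genes passed at 75, 50 and 25 mg/kg; the same shares stand beside the lists that follow. Trp53 itself gave -0.88, -0.76, -0.85 and -1.08 at 75 mg/kg, against -0.86, -0.76, -0.70, -0.78 and -1.29 in controls, and differed by -0.02 ± 0.13 (limma adjusted p = 0.983). Mdm4, the partner of Mdm2, differed by 0.02 ± 0.24 (adjusted p = 0.986). At 75 mg/kg 8 of the 19 were above 0, and the list ran from -0.30 for Sirt1 to 0.37 for Ppm1d. Ppm1d differed by 0.37 ± 0.13, 0.36 ± 0.13 and 0.40 ± 0.13 at 75, 50 and 25 mg/kg (limma adjusted p = 0.275, 0.606 and 0.999). Of 22 other p53 targets tested, 0 rose and 0 fell at any dose. At 75 mg/kg their median was 0.06, 14 were above 0, and they ran from -0.20 to 0.69, the highest being Dcxr. Its arrays gave 0.39, 0.42, 0.52 and 0.63 at 75 mg/kg, against -0.02, -0.38, -0.19, -0.47 and 0.08 in controls. These groups did not overlap, as was the case for 3.3% of all genes. Its arrays at 50 and 25 mg/kg also lay above all controls (2.21% and 0.987% of all genes had groups that did not overlap). That list is mixed: it holds genes of repair, metabolism and secretion and also Sfn and Gadd45a, which act in G2 arrest and differed by 0.07 ± 0.15 and -0.05 ± 0.14 (adjusted p = 0.927 and 0.94).

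Of 23 genes of the cell cycle and mitosis 0 passed at any dose, with a median of 0.07 at 75 mg/kg, and Mki67 differed by 0.15 ± 0.38 (adjusted p = 0.933). Both values rest on control replicate 2. Without that array, a setting chosen after seeing the data, Mki67 averaged -2.45 at 75 mg/kg and -3.05 in controls. The difference was then 0.60 ± 0.20 (limma adjusted p = 0.233), and the list had a median of 0.21 with 0 of 23 passing. For Mki67, replicate 2 was the only control not below all 75 mg/kg arrays, so leaving it out fixed in advance that the groups no longer overlapped.

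**Figure D4:**
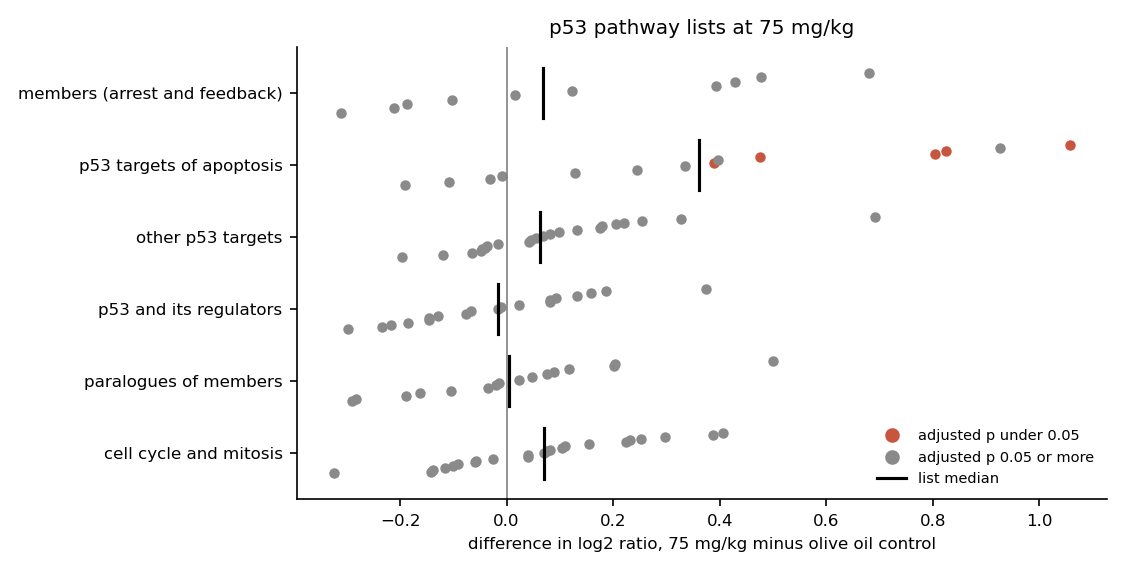
Difference in log2 ratio between 75 mg/kg and olive oil control (x axis) for the 10 genes of arrest and feedback and for 5 other lists, 1 point per gene, with the list median as a bar and genes past the adjusted p threshold in colour. The 5 coloured genes are all in the list of apoptosis targets, whose median is 0.36. The lists were chosen with earlier results of these data known.

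The genes whose pattern over the 17 arrays was most like that of each member were found among 13845 other named genes, as a description without a test. For Ccng1 the highest Pearson correlation was 0.812, with Cyb5rl, and for Phlda3 it was 0.878, with Iffo2. For Cdkn1a it was 0.932, with Tuba8, and for Zmat3 0.928, with Gab1. The highest for Mdm2 was 0.886, with Haspin, and for Sesn2 0.936, with Lpin2. The arrays share 1 reference RNA and 3 slides, and a slide that shifts a pair of genes raises such a value.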

How the data were processed

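The authors deposited 1 scanner table per array, made with Feature Extraction (version 10.7.3.1, per the file headers); it holds the intensity of spots and of their background in both dyes. Its processed intensity and the deposited series table of log2 values served as alternatives. Set against the arrays' own values, that table matched Cy5 over Cy3 ratios on a log2 scale, loess-normalized with no background correction (correlation 0.998 to 0.999, slope 0.995 to 0.998, column medians -0.03 to -0.02), a scale its source does not state; 0 of its columns were unmatched. The 0 or 1 flags on spots are also the scanner software's, per the file headers. Mean signals were not used here, so the median signal and median local background were taken. Per the labels all forestomach RNA was in Cy5, and no dye swap allows dye effects to be separated.

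Background was corrected with normexp (offset 50) and arrays by loess, with control and outlier spots left out and spots of 1 probe averaged. The dim filter required a Cy5 signal well above background on 4 or more arrays and left 27577 of 55681 probes. The brightest kept probe stood for a gene. RefSeq transcripts in the GRCm38.p6 table gave 26413 probes 1 symbol and 29268 none. Differences were tested with limma 3.58.1 in R 4.3.3, over 21384 genes in 1 fit of 4 group means on all 17 arrays, two-sided, with Benjamini-Hochberg adjustment (threshold 0.05). The fit was tested on simulated data. Alternatives were other background, normalization, channel, filter, probe, slide and weight settings and leaving out each array.

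Named genes were all 10 members with every probe, Trp53, Mdm4 and Mki67, any listed gene past the threshold at a dose, and the genes of highest correlation with a member. Sfn, Gadd45a, Dcxr, Ppm1d, Sirt1 and the paralogues named in addition were chosen after their values were seen. The members and lists were chosen with earlier results of these data known. The number of arrays limits the precision. The series' design text describes each group's samples as biological replicates. The array design names build mm9, so no probe coordinates are given.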

Additional observations from a re-analysis of the deposited data

Results flagged for a closer look

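Of 40 sets of 4 or 5 arrays (10 genes in 4 groups), 3 had 1 array far from the rest of its group, by the gap to its neighbour relative to the group's range; chance gives about 1 set in 20. Cdkn1a was 0.36 on replicate 19 of the 75 mg/kg group, where the next array was at 0.82. Mdm2 was -0.89 on replicate 15 of the 50 mg/kg group, and the next array was at -0.49. Sesn1 was 1.08 on replicate 8 of the 25 mg/kg group, while the other 3 arrays lay between 1.199 and 1.22.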

How the results depend on the processing

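No paired analysis was possible because the groups share no replicate number. No member passed at 25 or 50 mg/kg, or between 75 and 25 mg/kg, under any alternative. At 75 mg/kg the count of members passing was 0; it was 1 (Ccng1) in the Cy5 channel alone and with slide as a block, and 0 to 1 without 1 array each, the 1 being Phlda3 without replicate 19 of the 75 mg/kg group. By dose slope it was 0; it was 1 with Agilent's processed signals, without background correction, in the authors' deposited series table, with the dim filter on at least 8 arrays and with the mean of a gene's probes (Phlda3 in these 5), 1 in the Cy5 channel alone (Ccng1), 2 with slide as a block (both), and 0 to 1 without 1 array each. Of 413 member values under the settings that kept all arrays, 21 changed sign, and none of these passed the test. With median centring in place of loess, where the median of all genes was 0.19, 0.0837 and 0.157 at 75, 50 and 25 mg/kg, Btg2 was 0.22 at 75 and 0.12 at 25 mg/kg, Sesn1 was 0.030, 0.019 and 0.016 at 75, 50 and 25 mg/kg with a slope of 0.0095, Sesn2 was 0.15 at 75 mg/kg, and Mdm2 was 0.13 at 50 and 0.074 at 25 mg/kg. With Agilent's processed signals Btg2 was 0.14 at 75, Mdm2 0.049 at 50, Gtse1 -0.25 at 25 and Plk2 -0.025 at 25 mg/kg. In the Cy5 channel alone Mdm2 was -0.028 and Gtse1 0.10 at 75, and Gtse1 was 0.017 at 50 and -0.22 at 25 mg/kg. Mdm2 was -0.0073 with array weights at 75 mg/kg. Gtse1 was 0.0087 at 50 and -0.072 at 25 mg/kg with slide as a block, and -0.0014 at 25 mg/kg with an offset of 10. Without 1 array each, Btg2 at 75 mg/kg ran from -0.27 to 0.011, Mdm2 from -0.063 to 0.10 at 75 and from -0.17 to 0.015 at 50 mg/kg, Gtse1 from -0.20 to 0.061 at 50 and from -0.13 to 0.25 at 25 mg/kg, and Sesn2 from -0.41 to 0.13 at 50 mg/kg. Leaving out 1 array changed the sign or moved the value by over 1.5 times for 8, 7 and 6 of the 10 members at 25, 50 and 75 mg/kg; none of these differences had passed. The causes were not tested. Over all genes at 75 mg/kg, 191 rose and 45 fell; the counts were 142 and 3 with median centring, 330 and 94 with slide as a block, and 138 and 17 with only the compared groups in the fit. In the Cy5 channel alone 189 rose and 56 fell at that dose. By dose slope, 288 of 21384 genes passed in the main fit, 549 with slide as a block and 352 in the Cy5 channel alone. The slope count was 252 with Agilent's processed signals, 298 without background correction and 290 in the deposited series table. It was 280 with the mean of a gene's probes and 286 of 19963 genes with the dim filter on at least 8 arrays. Gtse1 and the second Cdkn1a probe are limited by signals near background.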

Other observations

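Close relatives of the 10 genes did not pass either. Of 16 tested paralogues, 0 passed at any dose by limma (1.1%, 0.0468% and 0.014% of all genes did at 75, 50 and 25 mg/kg), with a median difference of 0.00 (0.0045) at 75 mg/kg. Phlda1, a relative of Phlda3, differed by 0.50 ± 0.17 (limma adjusted p = 0.27), and Cdkn1b, the relative of Cdkn1a that encodes p27, by -0.29 ± 0.11 (adjusted p = 0.369). Sesn3 and Ccng2 differed by -0.02 ± 0.11 and 0.12 ± 0.13 (adjusted p = 0.973 and 0.823).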
